A study of Mus musculus with 12 samples.

Results

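The BCL2 family and the initiator caspases are the core machinery of apoptosis, the programmed death of single cells. The genes described are 8 members chosen by symbol: Bcl2, Bcl2l1, Mcl1, Bak1, Bid, Bcl2l11, Casp8 and Casp9, of 37748 genes in the deposited table. All 8 members passed the filter on low counts, as did 16679 genes in all. Their expression was measured in gastrocnemius muscle of mouse models of facioscapulohumeral muscular dystrophy (FSHD), a muscle disease caused by misexpression of the transcription factor DUX4, which is toxic to muscle cells.

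Gastrocnemius muscles of 12 mice were sequenced as 1 library per mouse, with 3 mice in each of 4 groups, at 13 weeks of age. Control mice were ACTA1-MCM/+ and carried only a transgene for MerCreMer, a Cre recombinase activated by tamoxifen and driven by the skeletal muscle actin promoter. FLExDUX4/+ mice carried only the human DUX4 transgene, which is inverted until Cre recombines it. Both alleles together, FLExDUX4/+;MCM/+, made the moderate and severe models, whose muscles were taken 9 days after tamoxifen. The study reports low levels of recombination and of DUX4 protein in muscle with both alleles and no tamoxifen. No such mice are among the 12. DUX4 present before tamoxifen and DUX4 induced by it therefore cannot be told apart here. The moderate model received 5 mg/kg tamoxifen in 1 injection and the severe model 10 mg/kg in 2 injections on consecutive days. The human DUX4 transgene was not measured here. The labels of the control and FLExDUX4/+ libraries state that no tamoxifen was given, whereas the study describes its ACTA1-MCM/+ controls as injected. If the labels hold, tamoxifen itself and recombined DUX4 cannot be told apart in comparisons with the controls. The labels also call the FLExDUX4/+ libraries mild in pathology, although their genotype has no Cre. Recombination is mosaic, so fibers with and without DUX4 share each library. In such bulk tissue, fewer cells of a type and less RNA per cell cannot be told apart.

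Libraries held 23796902 to 29136403 expected counts. The 20 genes most abundant in control muscle took 57.7% to 58.5% of the counts in controls, 47.3% to 49.3% in the moderate model and 30.4% to 33.2% in the severe model. Levels are therefore given as CPM, counts brought to one common depth, with the trimmed mean of M values (TMM) correcting the library sizes, and differences are log2 fold changes with their standard errors (SE). Marker genes of mature myofibers matched the labelled tissue, with a summed level of 121164 to 170276 CPM in controls. This sum was 53169 to 65826 CPM in the moderate model and 7415 to 14316 CPM in the severe model, and all 5 markers were called lower in each model. Macrophage and leukocyte markers summed to 59.6 to 74.2 CPM in controls, against 344 to 437 CPM in moderate and 750 to 857 CPM in severe muscle, with 6 of 6 called higher in each. Regenerating myofiber markers rose in 3 of 3 genes in each model, from sums of 15.8 to 22.0 CPM to 319 to 572 and 1206 to 1707 CPM. Of 4 lymphocyte markers none had enough counts to be tested, and Cd3g, Ms4a1 and Cd79a were at 0 in at least 1 mouse. Satellite cell markers rose in 2 of 3 genes in each model, and 4 of 4 endothelial markers fell in the severe model. Among 4 fibroblast markers 2 rose in each model and 1 fell in the severe model, and of 2 neutrophil markers tested 1 rose in the severe model, with Ly6g at 0 in every mouse. The part of these cell types in the changes of the 8 genes was not tested.

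Proteins of the BCL2 family decide whether the outer mitochondrial membrane is breached. Anti-apoptotic members hold the pore-forming effectors in check, BH3-only proteins report damage by binding both kinds through a short helix called the BH3 domain, and the opened membrane releases cytochrome c, which assembles the apoptosome that activates caspase-9. Caspase-8 is activated instead at death receptors on the cell surface, and it cleaves BID to link that route to mitochondria. Skeletal muscle holds both multinucleate fibers and mononuclear cells, and these genes can be expressed in either.

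The BH3 domain is the feature shared by the 6 BCL2 family members, so its coding stretch is shown for each, 5′ to 3′ on the coding strand, with the codons of the conserved leucine and of the glycine-aspartate pair in capitals. A search of each translated coding sequence for leucine, any 3 residues, glycine and aspartate found 1 match per protein, and the 45 bases around it are printed.
Bcl2: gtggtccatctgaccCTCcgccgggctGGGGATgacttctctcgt
Bcl2l1: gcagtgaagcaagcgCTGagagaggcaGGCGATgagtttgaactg
Mcl1: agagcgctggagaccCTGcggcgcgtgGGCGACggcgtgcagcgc
Bak1: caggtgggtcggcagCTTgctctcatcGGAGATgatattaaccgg
Bid: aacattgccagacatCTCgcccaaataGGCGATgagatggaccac
Bcl2l11: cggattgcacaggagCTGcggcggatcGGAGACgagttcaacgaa
The search pattern fixes the spacing of the capitalised codons, while the bases between them differ from member to member in the 6 sequences. On GRCm38, these stretches lie at chr1:106712572-106712616 in coding exon 1 of Bcl2 (minus strand), chr2:152829694-152829738 in coding exon 1 of Bcl2l1 (minus strand) and chr3:95659421-95659465 in coding exon 1 of Mcl1 (plus strand). That of Bak1 is at chr17:27022528-27022572 in coding exon 3 (minus strand), that of Bid at chr6:120897286-120897330 in coding exon 3 (minus strand) and that of Bcl2l11 at chr2:128147135-128147179 in coding exon 2 (plus strand).

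For the caspases, the stretch around the catalytic cysteine is shown, with the cysteine codon in capitals, since this residue cuts the substrates.
Casp8: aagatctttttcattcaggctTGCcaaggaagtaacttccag
Casp9: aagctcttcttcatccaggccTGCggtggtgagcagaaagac
The Casp8 stretch lies at chr1:58844598-58844639 in coding exon 7 (plus strand). The Casp9 stretch is joined across an intron, from coding exon 6 to coding exon 7, between bases 141807232 and 141811549 of chromosome 4 (plus strand). Whole genes on GRCm38 are Bcl2 at chr1:106538178-106714274, Bcl2l1 at chr2:152780668-152831728, Mcl1 at chr3:95658788-95663176, Bak1 at chr17:27019810-27029009, Bid at chr6:120891930-120916853, Bcl2l11 at chr2:128126038-128162547, Casp8 at chr1:58795374-58847503 and Casp9 at chr4:141793612-141815976.

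In control muscle, the anti-apoptotic Mcl1 was by far the most abundant of the 8 genes on a scale that accounts for gene length, the authors' TPM. Mcl1 had 48.3 ± 7.43 TPM (SD, n = 3), against 7.26 ± 1.69 TPM for the effector Bak1 and 6.23 ± 1.21 TPM for the anti-apoptotic Bcl2l1. Bak1 and Bcl2l1 overlapped among control mice. The BH3-only gene Bcl2l11 (2.02 ± 0.146 TPM), Casp8 (1.75 ± 0.274 TPM) and Casp9 (1.46 ± 0.0781 TPM) came next, and each overlapped its neighbour. Bcl2 had 0.710 ± 0.110 TPM and Bid 0.427 ± 0.0643 TPM, the lowest of the 8, and these did not overlap each other. Among all genes tested, Mcl1 stood at the 93.5th percentile of control levels and Bid at the 15.4th.

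In the severe model the order was Mcl1 at 91.1 ± 4.92 TPM, Bak1 at 21.9 ± 1.62, Bcl2l1 at 21.6 ± 2.38, Casp8 at 16.8 ± 2.56, Bcl2l11 at 6.27 ± 1.14, Casp9 at 5.27 ± 0.570, Bid at 4.63 ± 0.586 and Bcl2 at 2.47 ± 0.310 TPM. Casp8, which followed Bcl2l11 in controls, had moved ahead of it, separated from the genes above and below it, and Bcl2 took the last place from Bid. Bak1 overlapped Bcl2l1, Bcl2l11 overlapped Casp9, and Casp9 overlapped Bid. In the moderate model, Casp8 at 5.16 ± 0.678 TPM also followed Bcl2l1, while Bcl2l11 (2.08 to 2.28 TPM), Bcl2 (1.92 ± 0.381 TPM) and Bid (1.59 ± 0.246 TPM) overlapped in turn and Bcl2l11 lay below Casp9 (2.70 ± 0.252 TPM) with no overlap. Every member's mean TPM was higher in the severe model than in controls. TPM are shares of a library's transcripts, and the median gene was also higher on that scale.

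Unrecombined FLExDUX4/+ muscle was compared with control muscle to ask whether the uninduced transgene moved these genes. None of the 8 was called, against 0.00600% of all genes tested in either direction. Over all genes, edgeR's quasi-likelihood test called 1, while 638 had an unadjusted p under 0.05 and DESeq2 called 7. The members' log2 fold changes ran from -0.21 for Bcl2 to 0.25 for Bcl2l1 with a median of 0.01, the smallest unadjusted p was 0.384, and FLExDUX4/+ and control mice overlapped for all 8. Across all genes tested, 8.60% had groups that did not overlap.

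**Figure D1:**
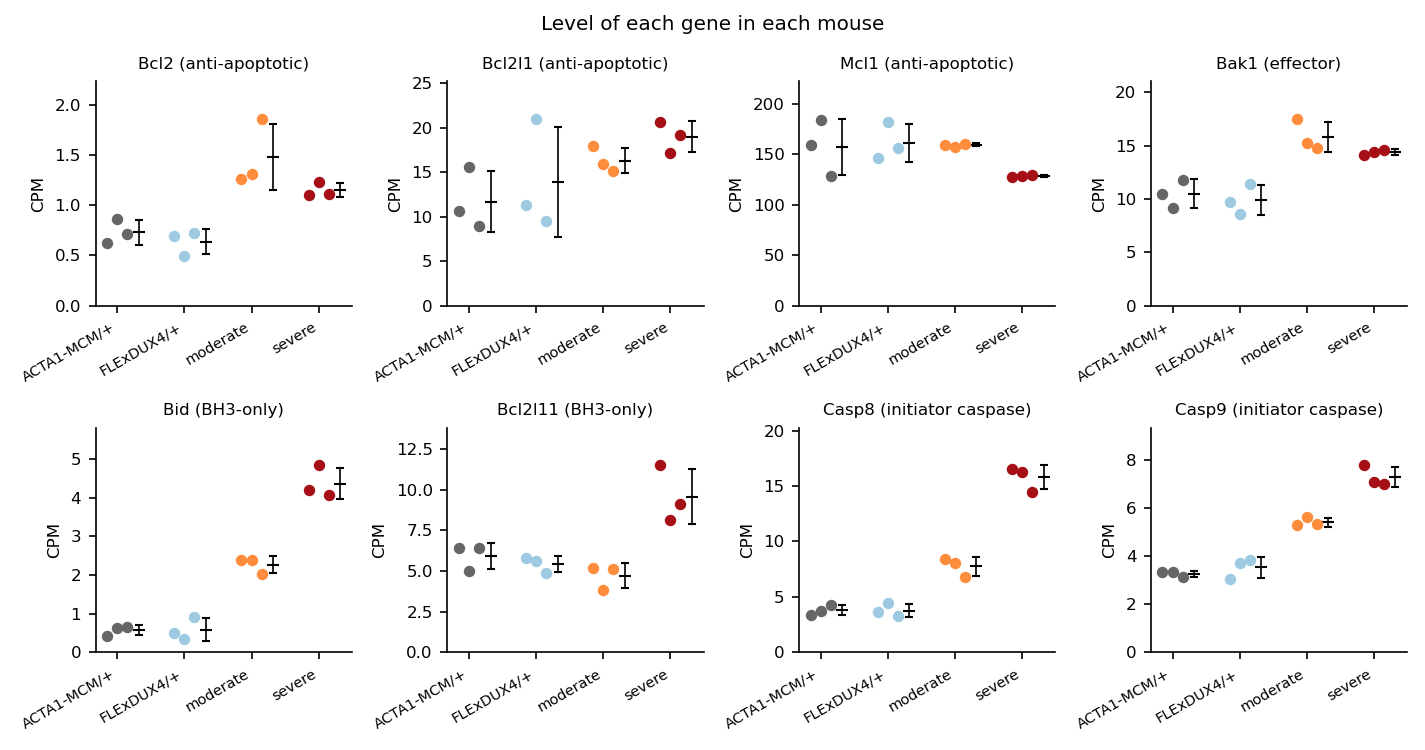
Level of each of the 8 genes in each of 12 mice, in CPM on TMM-adjusted library sizes (vertical axes from 0); points are mice and the bar beside them the mean and SD of 3 mice. Bid, Casp8 and Casp9 step up from control to moderate to severe with no overlap, Bcl2l11 is raised in the severe model and not called in the moderate one, and Mcl1 lies between 127 and 184 CPM throughout.

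In the moderate model, 5 of the 8 members rose and none fell, against 24.4% of all genes tested called higher and 17.0% called lower. The genes that rose were Bcl2, Bak1, Bid, Casp8 and Casp9, which cover the anti-apoptotic, effector, BH3-only and caspase roles. The median log2 fold change of the 8 was 0.66, beside 0.04 for all genes tested. The same 5 genes had groups that did not overlap, a pattern seen in 61.0% of all genes tested. Under an approximation of the rule of the study, which asks for a Bayes factor of 10 or more in every pairing of mice, none of the 5 was called.

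In the severe model, 6 of the 8 rose and none fell, against 32.9% called higher and 27.9% called lower among all genes tested. These were Bcl2, Bcl2l1, Bid, Bcl2l11, Casp8 and Casp9. The median of the 8 was 0.69, beside 0.08 for all genes. For 7 members the severe and control mice did not overlap, with Mcl1 as the exception, against 75.0% of all genes tested. The Bayes factor rule called 3 members higher in the severe model, Bid, Casp8 and Casp9, against 2433 of 16679 genes tested.

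Between the models, 3 members were higher in severe than in moderate muscle, namely Bid, Bcl2l11 and Casp8, and none was lower. Of all genes tested, 17.6% were called higher and 18.8% lower in this comparison, and 61.3% did not overlap. The 8 members had a median log2 difference of 0.33, beside 0.02 for all genes, and 7 did not overlap, with Bcl2l1 as the exception. Both models were compared with the same control mice.

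**Figure D2:**
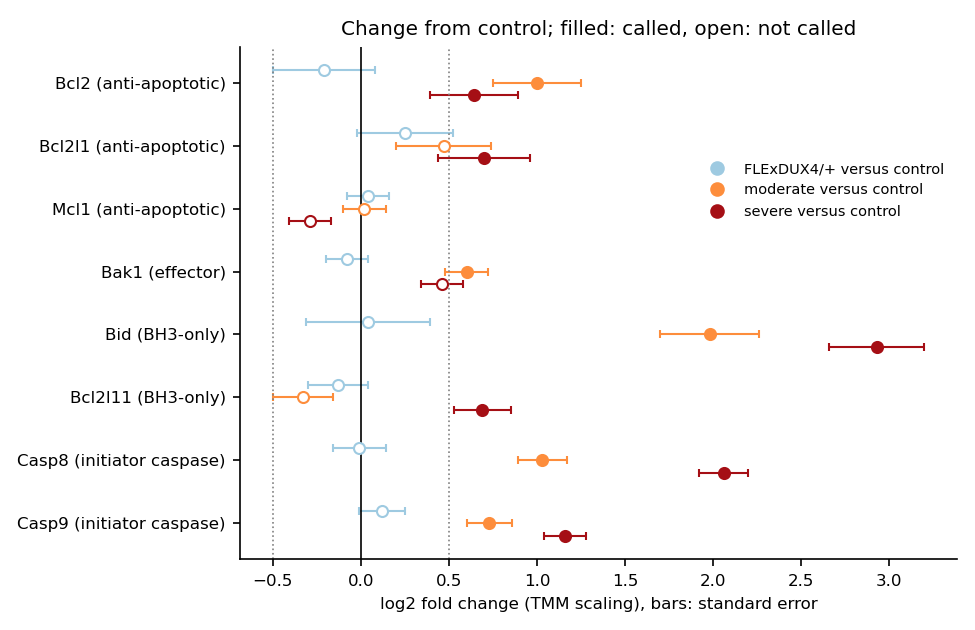
Log2 fold change from control for each gene (horizontal axis), with bars for the SE; filled points were called, which needs an adjusted p under 0.05 and a value outside the dotted lines at 0.5, and open points were not. The severe points of Bid (2.93) and Casp8 (2.06) lie farthest right, and the FLExDUX4/+ points stay within 0.25 of 0.

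Among the anti-apoptotic genes, Bcl2, the founding member of the family, was raised in both models from a low level. Bcl2 was at 0.622, 0.867 and 0.711 CPM in control mice, 1.26, 1.31 and 1.86 CPM in moderate mice and 1.10, 1.23 and 1.11 CPM in severe mice. FLExDUX4/+ mice had 0.689, 0.496 and 0.723 CPM. All moderate and severe mice were above all control mice, and the 3 moderate mice were above the 3 severe mice. By edgeR's quasi-likelihood test with Benjamini-Hochberg adjustment, the log2 fold change was 1.00 ± 0.25 (SE, adjusted p = 0.00397) in moderate and 0.64 ± 0.25 (adjusted p = 0.0345) in severe muscle. The severe-minus-moderate difference was -0.36 ± 0.22 (adjusted p = 0.186), with a 95% confidence interval of -0.84 to 0.11. Bcl2 had 10.0 to 57.0 counts per mouse, and its severe call was lost when any of the 3 severe mice, or control mouse 1127 or 1349, was left out (adjusted p of 0.0535 to 0.124), and with DESeq2 (adjusted p = 0.0808). The antisense gene D630008O14Rik, which shares 558 of 9157 exonic bases with Bcl2, was at 0.460 CPM in controls, 1.08 CPM in moderate and 0.404 CPM in severe muscle, and its part in the Bcl2 counts was not tested.

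Bcl2l1 encodes BCL-XL, an anti-apoptotic protein of the mitochondrial membrane. Its level was 10.7, 15.6 and 8.96 CPM in control mice, 17.9, 15.9 and 15.1 CPM in moderate mice and 20.7, 17.2 and 19.2 CPM in severe mice. FLExDUX4/+ mice spread widely, at 13.9 ± 6.19 CPM (SD, n = 3), and the highest of them was above all severe mice. The moderate mice overlapped the controls, with a log2 fold change of 0.47 ± 0.27 (adjusted p = 0.159, 95% confidence interval -0.11 to 1.05), while the severe mice were all above the controls, with 0.70 ± 0.26 (adjusted p = 0.0323). The moderate value was called higher by library size alone (1.08), without the 20 most abundant genes (0.78) and by limma with either pseudocount (0.81 and 0.90), and relative to the median of all genes it lay between 0.43 and 0.52 over the 7 scalings and tests. The severe call was lost when control mouse 1127 or 1349 or severe mouse 1047 or 1079 was left out, with adjusted p of 0.0693 to 0.126, and without the filter on low counts (0.0524).

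Mcl1 encodes a short-lived anti-apoptotic protein that many cells depend on. It was at 159, 184 and 128 CPM in control mice, 146, 182 and 156 CPM in FLExDUX4/+ mice, 159, 157 and 160 CPM in moderate mice and 127, 128 and 129 CPM in severe mice. The moderate and severe mice varied little among themselves, and the severe mice lay at the lowest control mouse. The moderate log2 fold change was 0.02 ± 0.12 (adjusted p = 0.914, 95% confidence interval -0.24 to 0.27), and it was called higher by library size alone (0.63) and by limma with either pseudocount (0.54 and 0.55), where the median of all genes was 0.65, 0.29 and 0.43. In the severe model it was -0.29 ± 0.12 (adjusted p = 0.0394), under the fold needed for a call, and between models -0.31 ± 0.12 (adjusted p = 0.0421), also not called. Its sign turned with the scaling. The severe log2 fold change of Mcl1 was 1.01 by library size alone and 0.91 by limma on log2(TPM + 1), and both were called higher. The median gene moved with it, by 1.39 and 0.79, and relative to the median of all genes tested the severe value of Mcl1 lay between -0.38 and 0.12 over 7 scalings and tests.

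Bak1 encodes BAK, which forms pores in the mitochondrial membrane once freed from its inhibitors. Its level was 10.5, 9.11 and 11.8 CPM in control mice, 17.5, 15.2 and 14.8 CPM in moderate mice and 14.1, 14.4 and 14.6 CPM in severe mice. FLExDUX4/+ mice had 9.74, 8.63 and 11.4 CPM. All mice of both models were above all controls, and the severe mice were below the moderate mice. The log2 fold change was 0.60 ± 0.12 (adjusted p = 7.4e-04) in the moderate model, a call that was lost without control mouse 1246 (0.47). In the severe model it was 0.46 ± 0.12 (adjusted p = 0.00321), short of the fold threshold. It passed that threshold without control mouse 1349 (0.54), with no count filter (0.56), with a minimum of 10 counts (0.57), without the 20 most abundant genes in the library size (1.06), by library size alone (1.76) and by limma with either pseudocount (1.49 and 1.60). Bak1 lies inside Ggnbp1 on the opposite strand and shares 437 of its 2407 exonic bases with it. Ggnbp1 was at 15.4 CPM in controls, 7.40 CPM in moderate and 3.10 CPM in severe muscle, and its part in the Bak1 counts was not tested.

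Among the BH3-only genes, Bid had the largest change from control of the 8 members with TMM scaling. With limma on log2(TPM + 1) the change of Casp8 was larger, at 1.16 against 0.86 for Bid in moderate and 2.69 against 1.98 in severe muscle, and the order of the pair in the severe model also turned with log2(TPM + 0.1), at 3.19 against 3.17. Bid encodes the BH3-only protein that caspase-8 cleaves into an active fragment. It was at 0.414, 0.626 and 0.664 CPM in control mice, 0.492, 0.347 and 0.916 CPM in FLExDUX4/+ mice, 2.40, 2.38 and 2.02 CPM in moderate mice and 4.19, 4.84 and 4.08 CPM in severe mice. The 3 levels of control, moderate and severe mice did not overlap. The log2 fold change was 1.98 ± 0.28 (adjusted p = 3.7e-05) in the moderate model, a 3.95-fold rise, and 2.93 ± 0.27 (adjusted p = 2.0e-07) in the severe model, a 7.60-fold rise. Severe exceeded moderate mice by 0.95 ± 0.21 (adjusted p = 0.00199). These values rest on 8.40 to 14.1 expected counts per control mouse, against 169 to 205 per severe mouse. Bid shares 628 of its 3550 exonic bases with Bcl2l13 on the opposite strand. Bcl2l13 was at 79.4 CPM in controls, 105 CPM in moderate and 62.8 CPM in severe muscle, against means of 0.568, 2.27 and 4.37 CPM for Bid. The part of Bcl2l13 in the Bid counts was not tested.

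Bcl2l11 encodes BIM, a BH3-only protein that binds all the anti-apoptotic members. It differed from Bid in where it rose. Bcl2l11 was at 6.42, 5.01 and 6.40 CPM in control mice, 5.17, 3.83 and 5.12 CPM in moderate mice and 11.5, 8.16 and 9.11 CPM in severe mice, with 5.81, 5.60 and 4.87 CPM in FLExDUX4/+ mice. Moderate mice overlapped the controls, and all severe mice were above every other mouse. The log2 fold change was -0.33 ± 0.17 (adjusted p = 0.110, 95% confidence interval -0.69 to 0.03) in the moderate model and 0.69 ± 0.16 (adjusted p = 0.00148) in the severe model. The models differed by 1.02 ± 0.16 (adjusted p = 1.3e-04), a 2.03-fold higher level in severe muscle. The sign of the moderate value turned positive with library size alone (0.27) and with limma on log2(TPM + 1) (0.07), where it was also not called. Relative to the median of all genes, it stayed between -0.37 and -0.21 over 7 scalings and tests.

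Casp8 encodes the initiator caspase of death receptors. It was at 3.37, 3.71 and 4.27 CPM in control mice, 3.59, 4.41 and 3.28 CPM in FLExDUX4/+ mice, 8.39, 8.07 and 6.75 CPM in moderate mice and 16.5, 16.3 and 14.5 CPM in severe mice. On the log2 scale, the steps from control to moderate and from moderate to severe were of like size, and no mouse of one level overlapped the next. The log2 fold change was 1.03 ± 0.14 (adjusted p = 2.7e-05) in moderate and 2.06 ± 0.14 (adjusted p = 8.3e-09) in severe muscle. The severe-minus-moderate difference was 1.03 ± 0.12 (adjusted p = 1.8e-05). Its severe call was kept under all 22 alternatives.

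Casp9 encodes the initiator caspase of the apoptosome. It was at 3.32, 3.32 and 3.13 CPM in control mice, 3.05, 3.72 and 3.86 CPM in FLExDUX4/+ mice, 5.30, 5.62 and 5.32 CPM in moderate mice and 7.78, 7.10 and 7.01 CPM in severe mice. The 3 levels of control, moderate and severe mice did not overlap. The log2 fold change was 0.73 ± 0.13 (adjusted p = 2.3e-04) in moderate and 1.16 ± 0.12 (adjusted p = 1.0e-06) in severe muscle, with 0.43 ± 0.11 (adjusted p = 0.00639) between models, under the fold threshold. This difference was called by library size alone (1.13), without the 20 most abundant genes (0.73) and by limma with either pseudocount (0.76 and 0.94). Casp9 overlaps the digestive protease genes Cela2a and Ctrc on the opposite strand, and neither exceeded 1.06 counts in any mouse.

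Since the scaling between libraries touches every gene alike, ratios between members within each mouse were also compared, as log2 ratios of TPM with no test. The ratio of Bid to Mcl1 moved farthest. It was -6.82 ± 0.41 (SD, n = 3) in controls, -7.04 ± 0.60 in FLExDUX4/+ mice, -5.47 ± 0.18 in moderate and -4.31 ± 0.11 in severe muscle. In words, Mcl1 transcripts outnumbered Bid transcripts 113 to 1 in controls and 19.8 to 1 in severe muscle, and control, moderate and severe mice did not overlap. Bid over Bcl2l1 went likewise from -3.86 ± 0.43 to -2.87 ± 0.17 and -2.22 ± 0.15. Bid over Bcl2 crossed from -0.73 ± 0.27 in controls to 0.90 ± 0.06 in severe muscle. The moderate mice, at -0.26 ± 0.51, overlapped the controls on TPM but not on CPM.

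The ratios of Bcl2l11 to the anti-apoptotic genes were lowest in the moderate model. Bcl2l11 over Bcl2 was 1.52 ± 0.30 in controls, 0.20 ± 0.24 in moderate and 1.34 ± 0.25 in severe muscle, so that severe mice overlapped the controls and moderate mice lay below both. Bcl2l11 over Bcl2l1 followed the same order, at -1.61 ± 0.37, -2.41 ± 0.12 and -1.79 ± 0.10. Over Mcl1, the severe mice (-3.87 ± 0.23) were above the controls (-4.57 ± 0.33), and the moderate mice (-5.01 ± 0.17) overlapped them. Bak1 over Bcl2 and Bak1 over Bcl2l1 overlapped the controls in both models. Bak1 over Mcl1 was higher in severe mice, at -2.06 ± 0.06, than in controls, at -2.75 ± 0.53, with no overlap.

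Casp8 over Casp9 was 0.25 ± 0.15 in controls, 0.03 ± 0.16 in FLExDUX4/+ mice, 0.93 ± 0.14 in moderate and 1.67 ± 0.10 in severe muscle. On TPM there was no overlap among control, moderate and severe mice. Of the 10 ratios compared, 5 separated moderate from control mice, 6 severe from control mice and 9 severe from moderate mice. Of all single genes tested, 61.0%, 75.0% and 61.3% did not overlap in these comparisons on CPM. No such share was computed for ratios of other gene pairs. The counts of the 10 ratios were 5, 6 and 9 again with CPM in place of TPM. The pairs that separated moderate from control mice were not all the same, however. On CPM, Casp8 over Casp9 and Bcl2l11 over Bcl2l1 overlapped between moderate and control mice. Bid over Bcl2 and, narrowly, Bak1 over Mcl1 separated them instead. Some differences were of another size on CPM. There, the severe-minus-control difference of Casp8 over Casp9 was 0.90 in place of 1.42 and the moderate-minus-control one 0.30 in place of 0.68. The same moderate difference was 1.02 in place of 0.47 for Bid over Bcl2 and 1.52 in place of 0.99 for Bid over Bcl2l1. Counts divided by TPM, which reflect the length assigned to a gene, went, relative to the median gene, from 0.868 to 0.970 in controls to 1.27 to 1.30 in severe mice for Casp9, and from 0.470 to 0.644 to 0.827 to 0.934 for Bid, while those of Casp8 were 0.898 to 0.914 and 0.864 to 0.886. The part of this length in the ratios was not tested.

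**Figure D3:**
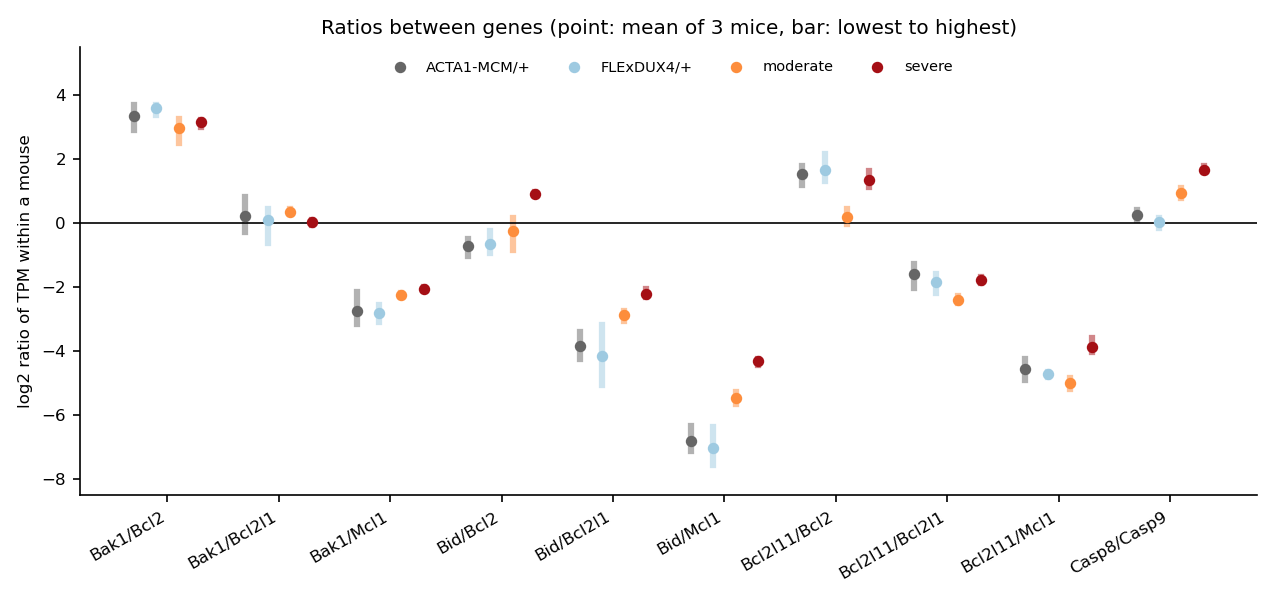
Log2 ratio of TPM between members within a mouse (vertical axis) for 10 pairs; points are means of 3 mice and bars run from the lowest to the highest mouse. Bid over Mcl1 climbs from -6.82 in controls to -4.31 in the severe model, and Bcl2l11 over Bcl2 dips to 0.20 in the moderate model alone.

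The wider cell death machinery was described by 12 lists of 61 genes, of which 57 had enough counts to be tested. In the moderate model 31 of the 57 rose and 8 fell, and in the severe model 33 rose and 11 fell. Of all genes tested, the shares that rose and fell were 24.4% and 17.0% in moderate and 32.9% and 27.9% in severe muscle. Without the 8 members, 49 genes were tested, with 26 higher and 8 lower in moderate and 27 higher and 11 lower in severe muscle. Their median log2 fold changes were 0.62 and 0.88, beside 0.04 and 0.08 for all genes tested. No list gene was called between FLExDUX4/+ and control mice, and none was called in opposite directions in the models.

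Other genes of the BCL2 family moved in both directions. Of 7 anti-apoptotic genes tested, 4 rose in the moderate model, and in the severe model 5 rose and 1 fell. The Bcl2a1 paralogs are 3 of those that rose in each. Of all genes tested, 24.4% rose and 17.0% fell in moderate muscle, and 32.9% rose and 27.9% fell in severe muscle. Bcl2l2, which encodes BCL-W, fell in the severe model by 0.82 on the log2 scale, from 35.5 ± 0.722 to 20.1 ± 1.53 CPM (adjusted p = 3.2e-07). The blood-cell paralogs Bcl2a1a, Bcl2a1b and Bcl2a1d are nearly identical, so reads could be split between them, and their summed level was 0.247 ± 0.0609 CPM in controls, 3.96 ± 1.11 CPM in moderate and 7.64 ± 1.42 CPM in severe muscle. The effectors Bax and Bok rose in both models, and Bak1 was called in the moderate one alone. Bax went from 6.85 ± 0.726 CPM to 14.5 ± 1.92 and 16.6 ± 1.07 CPM, and Bok from 1.14 ± 0.0387 CPM to 3.34 ± 0.145 and 8.71 ± 1.36 CPM.

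BH3-only genes were raised in 4 of 7 tested in each model, and 5 were higher in severe than in moderate muscle. The shares of all genes tested called higher were 24.4% in moderate muscle, 32.9% in severe muscle and 17.6% in severe over moderate muscle. Pmaip1, which encodes NOXA, had at most 1 count in each control mouse, 7 to 9 counts in moderate mice and 62 to 121 in severe mice. The ratio of its pooled depth-adjusted counts was 63.2 between severe and control (exact 95% counting interval 17.3 to 525). Bmf rose by a log2 fold change of 1.37 ± 0.19 (adjusted p = 2.0e-05) in the severe model, whereas Bik, at 0.71 ± 0.38, was not called. By edgeR's quasi-likelihood test, Bad was called higher in the moderate model, at 0.62 ± 0.12 (adjusted p = 7.5e-04). In the severe model Bad was at 0.49 ± 0.12 (adjusted p = 0.00275), under the fold needed for a call. Of the relatives linked to the removal of mitochondria, Bnip3 fell by 1.28 in the moderate model and by 2.59 in the severe model, and Bnip3l fell by 0.64 and by 0.76, on the log2 scale. Bcl2l13 was not called in either model.

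Among other caspases, Casp6, which acts downstream of the initiators, rose by 1.37 ± 0.33 (log2 fold change) in moderate and 2.20 ± 0.32 in severe muscle. The third initiator tested, Casp2, was at -0.01 ± 0.12 in the moderate model and rose by 0.70 ± 0.11 in the severe model. Of the caspases that act in inflammation, Casp1 rose by 1.36 ± 0.23 and 2.34 ± 0.22 and Casp4 by 1.10 ± 0.21 and 1.67 ± 0.20, while Casp12 was not called.

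The partners of Casp9 in the mitochondrial route did not move together. Apaf1, the scaffold of the apoptosome, rose from 6.11 ± 0.631 CPM to 13.8 ± 1.36 CPM in moderate and 24.9 ± 0.991 CPM in severe muscle. Cycs, the gene of somatic cytochrome c, fell from 410 ± 40.3 CPM to 280 ± 35.0 and 132 ± 24.6 CPM. Among 6 genes of the apoptosome and of proteins released from mitochondria, 1 rose and 2 fell in the moderate model. The shares of all genes tested were 24.4% higher and 17.0% lower. In the severe model 2 of the 6 rose and 4 fell, against 32.9% higher and 27.9% lower of all genes tested. The 4 that fell, Cycs, Endog, Diablo and Aifm1, encode proteins resident in mitochondria, as does Htra2, which rose. Endog was at 27.4 ± 5.38 CPM in controls and 4.65 ± 1.34 CPM in severe muscle, and Diablo was at 30.1 ± 0.969 and 15.8 ± 0.754 CPM.

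The inhibitor of apoptosis genes split, with 2 of 5 higher and 1 lower in each model. Of all genes tested, 24.4% were higher and 17.0% lower in moderate muscle, and 32.9% higher and 27.9% lower in severe muscle. Birc5, which encodes survivin and is also a gene of dividing cells, rose by 2.19 ± 0.27 and 3.94 ± 0.25, and Birc3 by 0.66 ± 0.14 and 1.03 ± 0.14. Birc2 fell by 0.67 and by 1.03 on the log2 scale, and Xiap was at 0.29 ± 0.10 in the severe model and was not called. Of 9 death ligand, receptor and adaptor genes tested, 6 rose and 1, the ligand gene Tnfsf10, fell in each model, against 24.4% higher and 17.0% lower of all genes in moderate and 32.9% and 27.9% in severe muscle. The adaptor Tradd rose by 1.18 ± 0.16 and 1.57 ± 0.16, the kinase gene Ripk1 by 0.67 ± 0.15 and 1.43 ± 0.15, and the receptor gene Tnfrsf1a by 0.98 ± 0.12 and 1.39 ± 0.12. The ligand gene Tnf had at most 3 counts in any control mouse and 16 to 29 in severe mice, a ratio of 7.06 (exact 95% counting interval 2.89 to 22.4).

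Genes of necroptosis and pyroptosis, forms of lytic cell death, had the largest median of the 12 lists, 2.20 in moderate and 2.97 in severe muscle, with 6 of 7 higher and 1 lower in each. Over all genes tested the medians were 0.04 and 0.08, with 24.4% and 32.9% called higher and 17.0% and 27.9% lower. Zbp1, a sensor of nucleic acids, was at 0.375 ± 0.188 CPM in controls and 1.74 ± 0.550 and 4.33 ± 1.02 CPM in the models, and Ripk3, the necroptosis kinase, at 0.454 ± 0.135, 1.67 ± 0.516 and 3.61 ± 0.573 CPM. The inflammasome genes Pycard, at 0.699 ± 0.143, 4.61 ± 0.765 and 7.03 ± 0.224 CPM, and Nlrp3, at 0.147 ± 0.0472, 0.916 ± 0.242 and 1.32 ± 0.283 CPM, rose as well. The gene that fell was Gsdme, which encodes a pore-forming gasdermin, from 30.6 ± 5.34 CPM to 15.8 ± 1.89 and 11.0 ± 0.825 CPM; it was named after its values were seen. Among caspase substrates, Dffa, the inhibitor of the apoptotic DNase, fell by 0.54 and by 1.57 on the log2 scale, and Dffb and Parp1 were not called. Macrophages and other leukocytes express many genes of these inflammatory lists, and macrophage and leukocyte markers rose in both models as given above; their part in these changes was not tested.

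**Figure D4:**
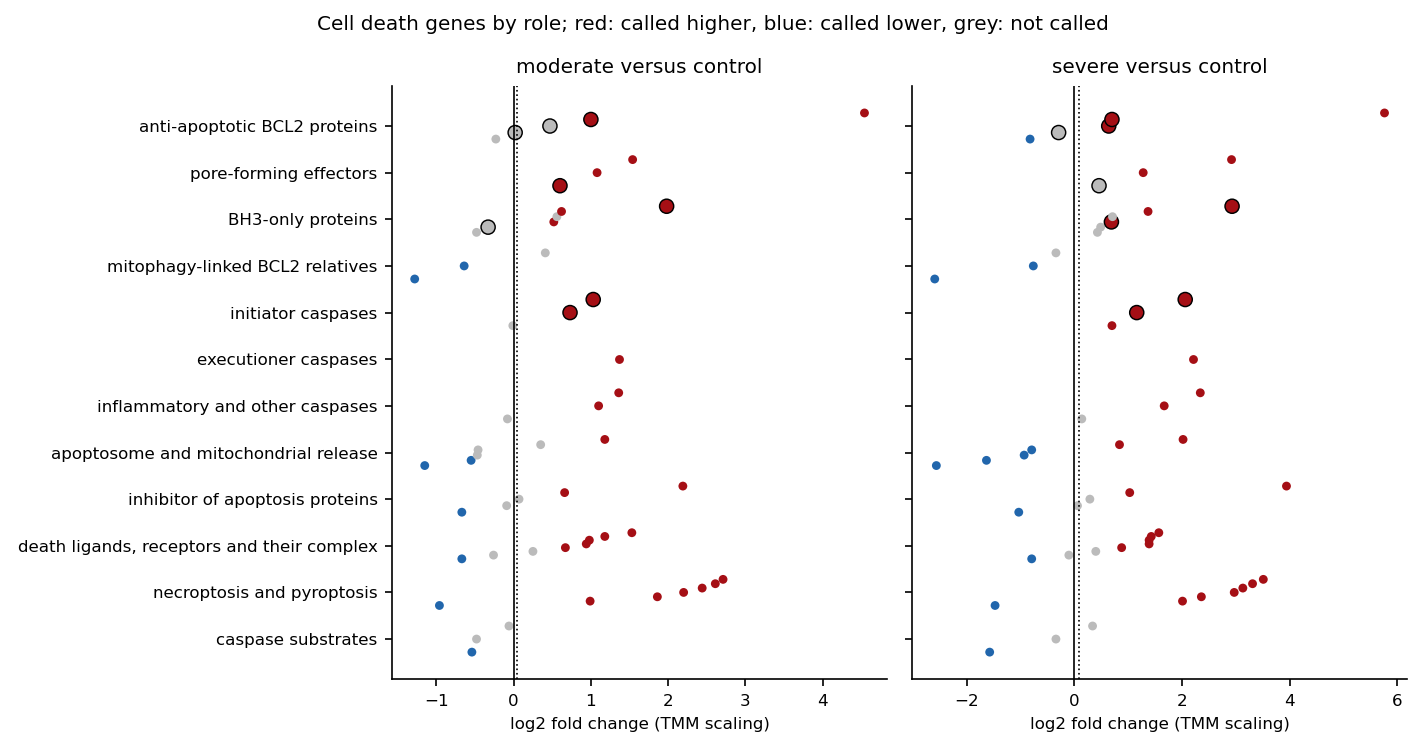
Log2 fold change of cell death genes by role in the moderate (left) and severe (right) models (horizontal axes); each point is a gene, outlined large points are the 8 members, and the dotted line is the median of all genes tested, 0.04 and 0.08. Genes with at most 3 counts in every control mouse are left out. Red points were called higher, blue points lower and grey points not called. Necroptosis and pyroptosis genes lie right of the dotted line but for Gsdme, the point farthest right is Bcl2a1b, and 4 of the 6 apoptosome and mitochondrial release genes lie left of 0 in each model.

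For each member, the tested genes with the most similar log2 CPM over the 12 mice were listed by Pearson's r, as a description. The 12 points share their groups and the scaling of each library. Casp8 was closest to Zfp36l2 (r = 0.996) and Tuba1a (0.994), Casp9 to Hdgfrp3 (0.990) and Aldh3b1 (0.990), and Bid to Pbk (0.992) and Plcg2 (0.992). Pbk, a kinase gene of dividing cells, was at 0.0953 CPM in controls and 8.05 CPM in severe muscle, and Plcg2, a signaling gene of blood cells, at 1.96 and 12.5 CPM. Bcl2 was closest to Tjp3 (0.945) and Musk (0.939), the receptor kinase of the neuromuscular junction, which peaked in the moderate model at 37.3 CPM against 21.8 CPM in controls and 29.2 CPM in severe muscle. Bak1 was closest to Fst (0.969), the gene of follistatin, and Gm11837 (0.967), Bcl2l1 to Lims1 (0.925) and Nceh1 (0.922), Mcl1 to Adamtsl4 (0.933) and Gm129 (0.908), and Bcl2l11 to Bbx (0.956) and Man1a2 (0.953).

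The share of counts in the most abundant genes differed between groups, so each member was also read under 7 scalings and tests. With TMM, median-of-ratios factors and DESeq2 the median of all genes stayed within 0.08 of 0 in both models. By library size alone it was 0.65 and 1.39, and decreases of list genes smaller than this shift would not stand on that scale. Bid, Casp8 and Casp9 were called higher in both models under all 7, as were Bcl2 and Bak1 in the moderate model and Bcl2l1 and Bcl2l11 in the severe model. Of 16679 genes tested, the 7 settings called 3889 to 8764 higher in moderate and 5237 to 12580 higher in severe muscle. Under 3 of them even Mcl1 was called higher in the severe model. The severe call of Bcl2l1 was lost with single mice left out, as given above. Relative to the median gene, Casp8 lay between 1.90 and 2.08 and Bid between 1.18 and 2.85 in the severe model. The lowest Bid value came from limma on log2(TPM + 1), and with log2(TPM + 0.1) Bid was at 2.05. Adding a pseudocount shrinks, by construction, the fold of a gene as low as Bid, which was at 0.427 TPM in controls. The part of the length assigned to Bid, given above with the ratios, was not tested.

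**Figure D5:**
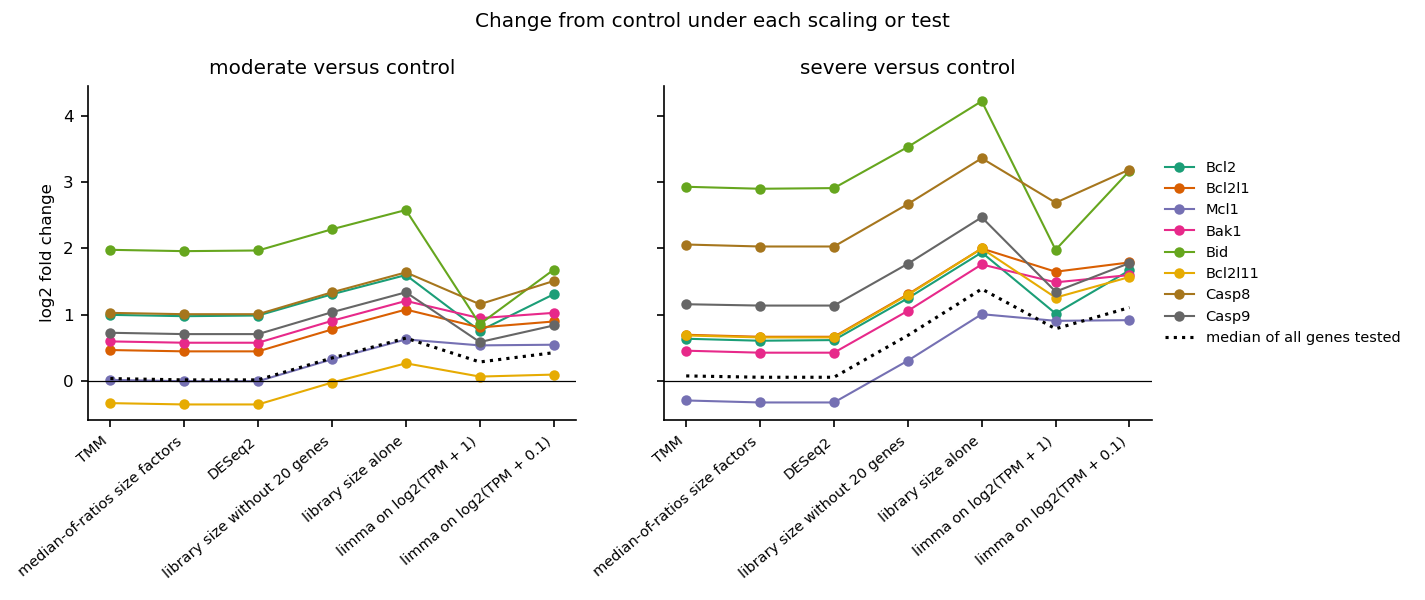
Log2 fold change from control of each member under 7 scalings or tests (horizontal axis) in the moderate (left) and severe (right) models; the dotted line is the median of all genes tested under each. Most lines follow the dotted line, Bid falls more steeply with limma on log2(TPM + 1), and in the severe model Mcl1 goes from -0.29 with TMM to 1.01 with library size alone while that line goes from 0.08 to 1.39.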

How the data were processed

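RNA of gastrocnemius muscle was sequenced by the authors as poly(A)-selected libraries with single reads of 50 bases. Using RSEM 1.2.4, which they changed to run Bowtie, the authors mapped reads to an mm10 annotation merged from UCSC, Ensembl and MISO. TopHat2 2.0.8b took the reads left over. They deposited expected counts per gene, not normalized, and a table of TPM from the same estimates. Whether counting used strand is not given in the sources used here.

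Expected counts were rounded and tested with edgeR 4.0.16 in R 4.3.3 (filterByExpr, TMM, robust quasi-likelihood F-test). All 4 groups shared the fit, and p-values were adjusted by Benjamini-Hochberg over 16679 genes. A call needed an adjusted p under 0.05 together with a log2 fold change of 0.5 or more in either direction, the fold of the study. SE were derived from the F statistic. Each mouse had 23796902 to 29136403 counts, so that 3 counts equal 0.0676 to 0.155 CPM; intervals on counts cover counting error only. The labels give mice as separate animals and no batch, and the sex of the sequenced mice is not given in the sources used here. The members and gene lists were chosen with earlier results of these data known. A few genes of the lists are not reported here, and the counts over their lists were computed without them. Named genes were the 8 members, values for up to 4 other tested genes per list, those with the largest absolute severe change, and the 2 tested genes at 1 CPM or more most correlated with each member. Gsdme, Aifm1, Htra2 and Tnfsf10 were named outside this rule, after their values were seen. The tests were first checked on simulated counts, in which a small set of genes changed in the moderate group alone, as many up as down. No shift in the share of the most abundant genes was built in, so that check does not cover the scaling between groups.

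GENCODE M21 (GRCm38) gave positions and coding sequences and matched 35982 of 37748 gene identifiers. Gsdme and the marker Adgre1 were matched by Ensembl identifier. Alternatives were library size alone, median-of-ratios factors, DESeq2 1.42.0, limma 3.58.1 on log2(TPM + 1) and log2(TPM + 0.1), no count filter, a minimum of 10 counts in each sample, fits of the compared groups alone, an approximation of the study's rule (Bayes factors of 10 or more between all mouse pairs), fold thresholds of 1 and none on the log2 scale, an adjusted p under 0.01 and each mouse left out in turn. Library size without the 20 most abundant genes was added after seeing the data. Python 3.11.15 and matplotlib 3.10.9 drew the figures.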

Additional observations from a re-analysis of the deposited data

How the results depend on the processing

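No paired analysis was possible because the labels number mice individually and no number is shared between groups. The precision is limited by 3 mice per group and, for Bcl2 and Bid, by the low counts given above, and Bid could not be tested with a minimum of 10 counts in every sample. The cause of the changes below was not tested, apart from fold thresholds, which by construction remove or admit small changes.

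For the members, the Bayes factor rule called 0 higher in moderate muscle, 3 in severe muscle and 1 between the models. Of 16679 genes tested it called 1326, 2433 and 770 higher. A log2 fold change of at least 1 left 3 higher in each model. Without a fold threshold, 1 member, Mcl1, was lower in the severe model and 1, again Mcl1, was lower in severe than in moderate muscle. Between the models, 6 members were higher with library size alone and with limma at either pseudocount.

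Over all genes, the moderate counts higher and lower were 8764 and 752 with library size alone, 7038 and 927 with limma on log2(TPM + 0.1), 1326 and 1029 by the Bayes factor rule and 2648 and 1172 at a log2 fold change of at least 1, while limma on log2(TPM + 1) gave 737 lower and library size without the 20 most abundant genes 1421 lower. The severe counts were 12580 and 1070 with library size alone, 10687 and 987 with limma on log2(TPM + 1), 12053 and 1132 with limma on log2(TPM + 0.1), 8964 and 2405 without the 20 genes and 2433 and 2541 by the Bayes factor rule, with 2928 lower at a log2 fold change of at least 1. Between the models they were, in the same order of settings, 9648 and 823, 8034 and 629, 9730 and 768, 5404 and 1804, and 770 and 1268, with 1356 and 1391 at a log2 fold change of at least 1. Between FLExDUX4/+ and control mice, DESeq2 called 4 genes higher and 3 lower, limma at either pseudocount and the Bayes factor rule called 1 higher, a fit of the compared groups alone called 0 lower, and leaving out 1 mouse gave 0 to 1 higher, with 1 without control mouse 1127 or moderate mouse 1236.

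Signs turned mostly for values near 0. Between FLExDUX4/+ and control mice, the log2 fold change of Bak1 was 0.02 and 0.03 with limma at pseudocounts of 1 and 0.1, that of Bid -0.02 and -0.09 with these and -0.04 by the Bayes factor rule, and that of Casp8 0.00 with library size alone. With 1 mouse left out, turned values were -0.17 for Bcl2l1, -0.09 to -0.05 for Mcl1, 0.01 for Bak1, -0.45 to -0.14 for Bid and 0.02 to 0.08 for Casp8, and over all mice left out they ranged from -0.17 to 0.50 for Bcl2l1, -0.09 to 0.17 for Mcl1, -0.20 to 0.01 for Bak1, -0.45 to 0.30 for Bid, -0.14 to 0.08 for Casp8. In the moderate model, Mcl1 was at 0.00 with median-of-ratios factors, with DESeq2 and without control mouse 1127, and it was called higher at 0.63 with library size alone and at 0.54 and 0.55 with limma; leaving out 1 mouse gave -0.14 to 0.11. Bcl2l11 was at 0.27 with library size alone and at 0.07 and 0.10 with limma.

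In the severe model, Mcl1 was at 1.01 with library size alone, 0.91 and 0.92 with limma and 0.31 without the 20 most abundant genes. Between the models, library size alone and limma at pseudocounts of 1 and 0.1 gave 0.34, 0.25 and 0.36 for Bcl2, 0.39, 0.37 and 0.38 for Mcl1, and 0.55, 0.54 and 0.57 for Bak1, which was at 0.16 without the 20 genes.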
